A study of Mus musculus with 4 samples.

Results

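The genes described here encode RNA-binding proteins that choose exons in developing neurons: the neuronal Hu protein genes Elavl2, Elavl3 and Elavl4, the Nova genes Nova1 and Nova2, the Rbfox genes Rbfox1, Rbfox2 and Rbfox3, and the polypyrimidine tract binding protein genes Ptbp1 and Ptbp2. They were taken by gene name from the deposited tables, and all 10 were found among the 19150 genes listed in both tables. All 10 also held enough reads to be among the 15708 genes tested. The samples were brain RNA of C57BL/6 mouse embryos (E13.5), 2 labelled KO (KO2 and KO4) and 2 labelled WT (WT6 and WT8), from a study of the deletion of macroH2A, a histone H2A variant with a large additional domain. The labels do not say which macroH2A gene was deleted, by which allele, whether in the whole animal, or whether litters were shared, so p-values reflect only how far these samples spread, and that spread may be technical. KO2 was deposited in a table with WT6 and KO4 in a table with WT8.

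Progenitors of the embryonic brain express Ptbp1, which holds many neuronal exons out of mRNA. As cells become neurons the microRNA miR-124 lowers Ptbp1, its relative Ptbp2 takes over, and later Nova and Rbfox proteins set the exon choices of mature neurons. Nova proteins bind clusters of YCAY, Rbfox proteins bind UGCAUG, and Hu proteins bind U-rich and AU-rich stretches, where they steer splicing and also mRNA stability and translation. A count per gene, as deposited here, measures how much transcript there was of each regulator and not which exons it chose.

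The libraries held between 16470090 and 18136745 counted reads. H2afy, the macroH2A1 gene, stood at 322 CPM in WT6 and 350 in WT8 but 74.6 in KO2 and 69.2 in KO4 (CPM: reads scaled to library size, with TMM, a factor that corrects for library composition), which is -2.22 as log2 of KO over WT (SE 0.10, adjusted p = 0.00167 by edgeR's quasi-likelihood test). H2afy2, the macroH2A2 gene, stood at 0.08 on that scale (SE 0.09, edgeR adjusted p = 0.799). H2afy was the single gene called at an adjusted p under 0.05, or 0.00637% of the genes tested, and 738 genes had an unadjusted p under 0.05. H2afy shares 501 bases of exon with the antisense gene Gm47071, which had 0 reads (KO2), 1 (KO4), 86 (WT6) and 68 (WT8). Reads over those bases cannot be told apart if counting did not use strand. Without WT6 the H2afy difference was as large, at -2.29, but was not called (edgeR adjusted p = 0.314).

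None of the 10 splicing regulators was called different between KO and WT brains by edgeR, DESeq2 or limma-voom on the 4 libraries. Their log2 fold changes of KO over WT ran from -0.23 to 0.21 with a median of -0.05, beside a median of -0.01 over all genes tested, and their edgeR adjusted p ran from 0.743 to 0.949. Ptbp1 and Rbfox3, both lower in the KO libraries, had an unadjusted p under 0.05 in edgeR, 2 of 10 where 4.7% of all genes tested did, 2.26% lower and 2.44% higher in KO. That count depended on the fit: it was 1 with upper quartile scaling and with DESeq2, and 0 with library totals as the scale or when the table of deposit was a block. Of the 10 log2 fold changes 4 were above 0, as were 48.9% of all. The 95% intervals of the 10 differences reached at the farthest -0.44 on the lower side and 0.62 on the higher side. With 2 libraries of each genotype none of the 10 differences passed the adjusted threshold. The KO libraries lay wholly above or wholly below the WT libraries for 6 of the 10 genes, beside 39.4% of all genes tested. Elavl2 and Ptbp2 lay above (20.1% of all genes) and Elavl3, Nova2, Rbfox3 and Ptbp1 below (19.4% of all genes). Without WT8 edgeR called Nova1 higher in KO, in a fit described with that gene below.

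**Figure D1:**
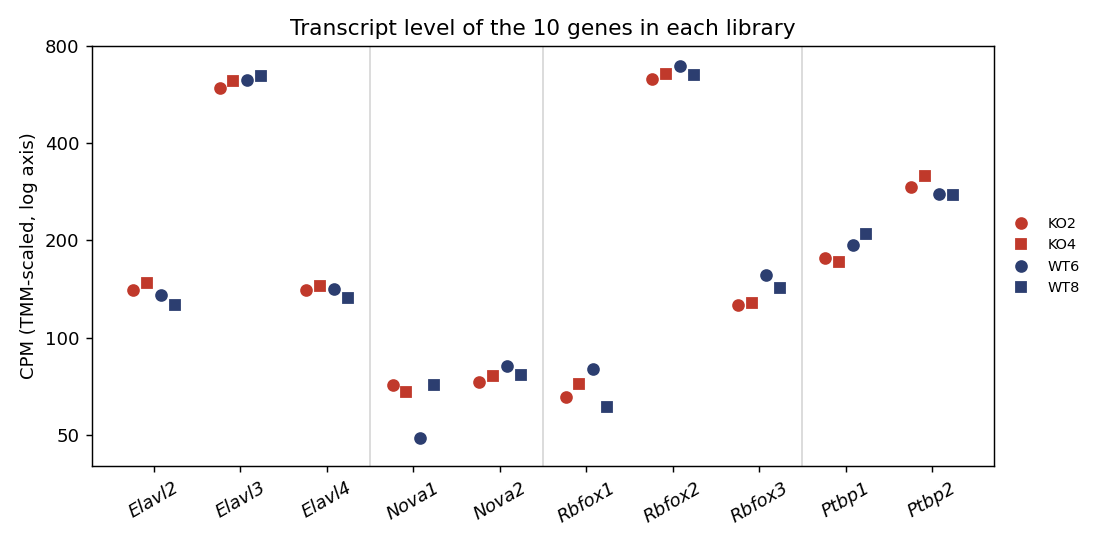
Transcript level of each gene in each library, in CPM scaled by TMM on a log axis; circles and squares are single libraries, red for KO and blue for WT, and vertical lines part the 4 families. Elavl3 and Rbfox2 stand highest in all 4 libraries, and WT6 stands apart from the other libraries for Nova1.

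Read per length of transcript, the family members stood at very different levels, and 2 pairs of neighbours in the order overlapped between libraries. Levels were set per kilobase of annotated exon, with all exons of a gene joined, so that a gene expressed from a short transcript is understated. Elavl3 came first with a mean of 90.2 CPM per kilobase over the 4 libraries (SD 3.32) and Rbfox2 second with 80.7 (SD 2.96). Ptbp1 followed with 39.6 (SD 3.62), ahead of Ptbp2 with 31.8 (SD 2.05), although Ptbp2 had more reads. Ptbp2 has 9175 bases of annotated exon and Ptbp1 4740. Elavl4 at 26.0 and Rbfox3 at 23.7 were neighbours whose libraries overlapped, between 24.7 and 27.0 for Elavl4 and between 21.6 and 26.7 for Rbfox3. Elavl2 at 16.5 and Rbfox1 at 15.8 overlapped as well, from 15.1 to 17.8 and from 13.8 to 18.2. The Nova genes were lowest, Nova2 at 9.18 and Nova1 at 7.42 CPM per kilobase. Even so, the lowest count of any of the 10 genes in a library was 839 reads, and each of them stood above at least 75.6% of the genes tested in mean CPM.

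Reads of close paralogs can be confused where the sequences are identical. Between the longest annotated coding sequences of the members of a family, 69.6% to 78.1% of aligned bases were identical. The longest run of identical bases was 29, reached by Elavl3 with Elavl4 and by Rbfox1 with Rbfox2. Both runs are shown, since a read inside them could come from either gene, and the sources used here give no read length.
Elavl3 and Elavl4: ttcggcttcgtcaccatgaccaactacga
Rbfox1 and Rbfox2: accgtggtagagggccgtaaaatcgaggt

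Ptbp1, the repressor of neuronal exons that is typical of progenitors, was the lower of the PTBP pair in read number and stood lower in both KO libraries. Ptbp1 (ENSMUSG00000006498, chromosome 10, 79854427 to 79864771 on GRCm38, plus strand) had 3239 reads (KO2), 3137 (KO4), 3339 (WT6) and 3337 (WT8), or 177, 171, 194 and 209 CPM. The KO libraries lay close together and both below the WT libraries. KO averaged 174 ± 3.90 CPM and WT 202 ± 10.5 CPM (mean ± SD, n = 2 each), giving a log2 fold change of -0.21 (SE 0.09, 95% interval -0.42 to -0.01, edgeR adjusted p = 0.743), which did not pass. Ptbp1 shares 251 bases of exon with Plppr3, a neuronal membrane protein gene on the opposite strand that had 13565 to 14775 reads, 295 bases with the noncoding gene E130317F20Rik and 437 bases with the antisense gene Gm17134, whose reads were not analysed here. The sources used here do not say whether counting used strand, so reads over these bases cannot be told apart and the Ptbp1 counts are uncertain to that extent. Plppr3 itself stood at a log2 fold change of -0.12 (95% interval -0.37 to 0.13), with WT8 highest at 924 CPM and the other libraries between 769 and 806.

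Ptbp2, the relative that replaces Ptbp1 in young neurons, stood higher in both KO libraries. Ptbp2 (ENSMUSG00000028134, chromosome 3, 119718742 to 119784466, minus strand) had 5372 reads (KO2), 5811 (KO4), 4801 (WT6) and 4405 (WT8), or 293, 317, 279 and 276 CPM. The WT libraries nearly coincided, and the KO libraries lay above them with KO4 highest. KO averaged 305 ± 17.0 CPM and WT 277 ± 2.29 CPM (mean ± SD, n = 2 each), giving a log2 fold change of 0.14 (SE 0.09, 95% interval -0.07 to 0.35, edgeR adjusted p = 0.743), which did not pass.

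Since the reads of a pair come from the same library, their ratio does not depend on how libraries were scaled. There were 1.66 reads of Ptbp2 for each read of Ptbp1 (KO2), 1.85 (KO4), 1.44 (WT6) and 1.32 (WT8). Both KO brains thus lay on the Ptbp2 side of both WT brains, with a difference of 0.35 between the mean log2 ratios (KO 0.81 ± 0.11, WT 0.46 ± 0.09, SD, n = 2 each). An exact two-sided permutation test gave p = 0.333, the smallest that 2 libraries against 2 can give, and 0.667 adjusted over the 4 ratios compared. Within the tables as deposited, the difference was 0.21 for KO2 and WT6 and 0.49 for KO4 and WT8. The PTBP pair as a whole summed to between 470 and 488 CPM in every library.

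The Ptbp1 and Ptbp2 genes share an exon of 34 bases whose use decides whether a full protein can be made, and it is shown because a count per gene adds up both outcomes. PTBP1 protein is known to cause skipping of this exon in Ptbp2 and in its own transcript, and as 34 is no multiple of 3, skipping shifts the reading frame. In the GENCODE M21 annotation 2 transcripts of Ptbp1 and 2 of Ptbp2 join the neighbouring exons without it, and all of these are classed as targets of nonsense-mediated decay. The exon lies at chr10:79862014-79862047 on the plus strand in Ptbp1 and at chr3:119724612-119724645 on the minus strand in Ptbp2 (GRCm38). The sequences are given 5′ to 3′ with the bases that differ between the genes in capitals. They are identical at 26 positions and differ at 8.
Ptbp1: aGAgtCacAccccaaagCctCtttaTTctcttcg
Ptbp2: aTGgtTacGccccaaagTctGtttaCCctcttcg
Reads of the forms with and without this exon are not separated in the tables, so the values above do not say how much of either transcript was productive.

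**Figure D2:**
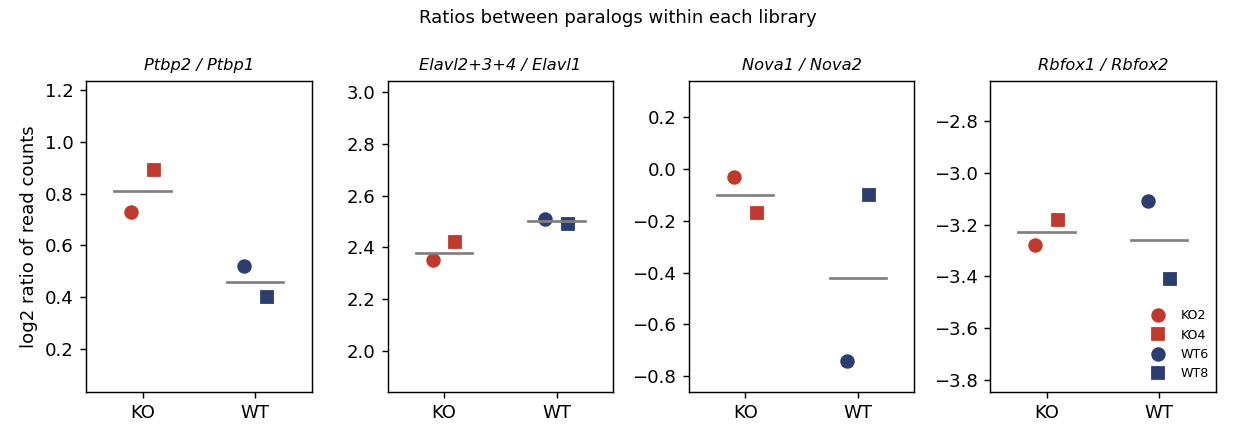
Log2 ratio of read counts between paralogs in each library, with KO in red, WT in blue and a grey line at the mean of each genotype; each panel spans the same range. The Ptbp2 to Ptbp1 ratio is higher in both KO libraries, the Elavl ratio is lower in both, and the Nova and Rbfox ratios overlap.

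Rbfox3, which encodes the neuronal nuclear antigen NeuN, was the gene of the 10 with the smallest p and stood lower in both KO libraries. Rbfox3 (ENSMUSG00000025576, chromosome 11, 118489762 to 118911597, minus strand) had 2303 reads (KO2), 2350 (KO4), 2675 (WT6) and 2282 (WT8), or 126, 128, 156 and 143 CPM. The KO libraries nearly coincided below both WT libraries. KO averaged 127 ± 1.84 CPM and WT 149 ± 8.91 CPM (mean ± SD, n = 2 each), giving a log2 fold change of -0.23 (SE 0.09, 95% interval -0.44 to -0.03, edgeR adjusted p = 0.743), which did not pass. Its unadjusted p was 0.0322, and that of Ptbp1 was 0.0452.

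Rbfox1 and Rbfox2, which bind the same UGCAUG element as Rbfox3, differed less between the genotypes than within WT. Rbfox1 (ENSMUSG00000008658, chromosome 16, 6809222 to 7412479 in the deposited tables, plus strand) had 1200 reads (KO2), 1319 (KO4), 1378 (WT6) and 972 (WT8), or 65.5, 72.0, 80.1 and 60.9 CPM. WT6 was the highest library and WT8 the lowest, with both KO libraries between them. The log2 fold change was -0.04 (SE 0.14, 95% interval -0.37 to 0.29, edgeR adjusted p = 0.949), whereas WT8 stood 0.40 below WT6 on the log2 scale, a log2 ratio of -0.40. It stood at 0.17 without WT6 and at 0.04 without KO2, so its direction rested on single libraries. Rbfox2 (ENSMUSG00000033565, chromosome 15, 77078990 to 77307053, minus strand), the broadly expressed member that is also active in muscle and epithelium, had 634 CPM (KO2), 653 (KO4), 691 (WT6) and 649 (WT8). These overlapped, with a log2 fold change of -0.06 (SE 0.09, 95% interval -0.27 to 0.15, edgeR adjusted p = 0.863).

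There was about 1 Rbfox1 read for every 10 Rbfox2 reads in all libraries. The ratio of Rbfox1 to Rbfox2 was 0.103 (KO2), 0.110 (KO4), 0.116 (WT6) and 0.0938 (WT8), again with both KO values between the WT values. The mean log2 ratios differed by 0.03 (exact two-sided permutation p = 1.0), and by 0.19 without WT6 and -0.12 without WT8. The deposited position of Rbfox1 starts inside the gene as annotated in GENCODE M21, which begins at 5885355, and whether reads from the exons upstream of it were counted is not known.

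Nova1, a regulator of inhibitory synapse transcripts in hindbrain and spinal cord, was the gene of the 10 with the largest difference between libraries of the same genotype. Nova1 (ENSMUSG00000021047, chromosome 12, 46694517 to 46818929, minus strand) had 1312 reads (KO2), 1241 (KO4), 839 (WT6) and 1144 (WT8), or 71.6, 67.7, 48.8 and 71.6 CPM. WT6 was low, and WT8 was at the level of the KO libraries. The exact Poisson interval of the WT6 count, 783 to 898 reads, did not reach that of WT8, 1079 to 1212 reads, so the gap between the WT brains exceeds counting error, which is all these intervals cover. The log2 fold change was 0.21 (SE 0.17, 95% interval -0.19 to 0.62, edgeR adjusted p = 0.757). It was -0.04 without WT6 (edgeR adjusted p = 0.788) and 0.52 without WT8 (edgeR adjusted p = 0.00545). The latter has only WT6 to stand for WT, takes its spread from the KO libraries and called 104 genes, so it compares WT6 with the KO brains and does not speak of the genotypes.

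Nova2, the Nova gene most used in the developing cortex, was more even across the libraries than Nova1. Nova2 (ENSMUSG00000030411, chromosome 7, 18925888 to 18965319, plus strand) had 1338 reads (KO2), 1395 (KO4), 1404 (WT6) and 1222 (WT8), or 73.0, 76.1, 81.6 and 76.5 CPM. KO4 and WT8 were nearly equal, and the log2 fold change was -0.08 (SE 0.08, 95% interval -0.28 to 0.12, edgeR adjusted p = 0.788). There were 0.981 Nova1 reads for each Nova2 read (KO2), 0.890 (KO4), 0.598 (WT6) and 0.936 (WT8). Here WT6 stood alone and the other libraries lay close together, and the difference between the mean log2 ratios of 0.32 had an exact two-sided permutation p of 0.667. Without WT6 the ratio difference was 0.00, and without WT8 it was 0.64, so it rested on WT6. Nova2 shares 2652 bases of exon with Gm26821 on the opposite strand, where reads cannot be told apart if counting did not use strand. Nova1 shares 310 bases with Gm33869 on its own strand, which strand cannot resolve, but Gm33869 had only 2 to 13 reads. Within the tables the ratio difference was 0.71 for KO2 and WT6 and -0.07 for KO4 and WT8.

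**Figure D3:**
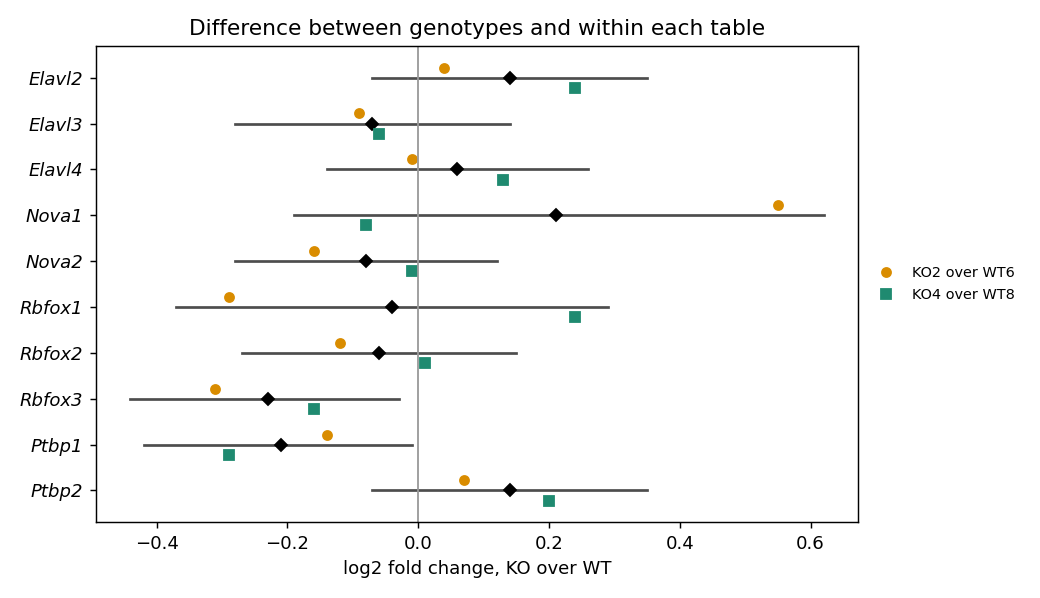
Log2 fold change of KO over WT for each gene from edgeR (black diamonds) with its 95% interval (lines, 2 libraries of each genotype), and the log2 ratio of TMM-scaled CPM of KO2 over WT6 (orange circles) and KO4 over WT8 (green squares). The pairs lie on opposite sides of 0 for Nova1, Rbfox1, Rbfox2 and Elavl4, and on the same side for the other genes.

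The neuronal Hu protein genes, which mark newly born neurons, summed to nearly the same level in every library, between 871 and 915 CPM. Elavl3 (ENSMUSG00000003410, chromosome 9, 22015005 to 22052023, minus strand) had 591 CPM (KO2), 621 (KO4), 627 (WT6) and 647 (WT8), and Elavl4 (ENSMUSG00000028546, chromosome 4, 110203722 to 110351909, minus strand) had 140, 145, 141 and 133 CPM in the same order. The log2 fold changes were -0.07 for Elavl3 (SE 0.09, 95% interval -0.28 to 0.14, edgeR adjusted p = 0.822) and 0.06 for Elavl4 (SE 0.08, 95% interval -0.14 to 0.26, edgeR adjusted p = 0.857). Elavl2 (ENSMUSG00000008489, chromosome 4, 91250763 to 91400785, minus strand) had 2557 reads (KO2), 2710 (KO4), 2332 (WT6) and 2006 (WT8), or 140, 148, 136 and 126 CPM. Elavl2 was higher in KO2 and KO4 than in either WT library, with a log2 fold change of 0.14 (SE 0.09, 95% interval -0.07 to 0.35, edgeR adjusted p = 0.743). None of the 3 passed. Elavl3 shares 256 bases of exon with Gm49318 on the same strand, which its count may in part include.

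Elavl1, the Hu protein gene expressed in nearly all cells, was used as the reference for its neuronal relatives. It had 171 CPM in both KO2 and KO4, 159 in WT6 and 161 in WT8, a difference of 0.10 in log2 units (SE 0.08, edgeR adjusted p = 0.759). Its KO libraries thus lay above its WT libraries, as they did for 20.1% of all genes tested. Elavl1 shares 204 bases of exon with Ccl25 on the opposite strand, which had 163 to 199 reads. For each Elavl1 read there were 5.10 reads of the neuronal genes (KO2), 5.34 (KO4), 5.70 (WT6) and 5.64 (WT8). Both KO values were below both WT values. The summed neuronal genes overlapped between the genotypes, at 871 CPM (KO2), 915 (KO4), 904 (WT6) and 906 (WT8), so the separation of the ratio also carries that of Elavl1. The difference of the mean log2 ratios was -0.12 (KO 2.38 ± 0.05, WT 2.50 ± 0.01, SD, n = 2 each, exact two-sided permutation p = 0.333, the smallest possible, and 0.667 adjusted over the 4 ratios).

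Whether the genotypes overlapped depended in part on how libraries were scaled. In the CPM that the authors deposited, which divide by the library total, Elavl3 and Nova2 overlapped between the genotypes and Elavl4 did not. That left 5 of the 10 apart in the deposited CPM, beside 39.1% of all genes tested. Elavl2, Rbfox3, Ptbp1 and Ptbp2 were the 4 that were apart on both scales, beside 35.2% of all genes. For Elavl4 the separation in the deposited CPM was between 141.67 in KO2 and 141.66 in WT6.

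In the authors' deposited tables, which compare 1 KO library with 1 WT library by a test not given in the sources used here, most of these genes have an adjusted p under 0.05. That holds for 8 of the 10 for KO2 over WT6, beside 17.3% of genes in that table, and for 7 of the 10 for KO4 over WT8, beside 39.0% of genes in that table. Such a test compares 2 libraries and not the genotypes. The authors' adjusted p is smaller than their unadjusted p for some of these genes, such as Elavl3 in KO4 over WT8. The Benjamini-Hochberg adjustment used for edgeR here cannot give that, so the authors' adjusted p is not the same measure. These genes also have more reads than most, and the part of read number in those shares was not tested. None of the 10 carries the authors' mark of significance, which 1.86% and 5.05% of the genes in the deposited tables do. The authors' cutoff on the log2 fold change was 1, which none of the 10 reached, so the missing mark does not speak of their p-values. In both of the authors' deposited tables Ptbp1 (log2 fold changes of -0.12 and -0.22) and Rbfox3 (-0.30 and -0.09) are lower and Ptbp2 (0.08 and 0.27) is higher, each at an adjusted p under 0.05. Such agreement holds for 3 of the 10 and for 4.75% of the genes in both deposited tables. Rbfox1 (-0.28 and 0.31) and Rbfox2 (-0.11 and 0.07) pass in both of the authors' deposited tables in opposite directions, as do 6.53% of all genes. The sign is shared by the authors' deposited tables for 5 of the 10 and for 49.5% of all genes. For Nova1 the authors' deposited tables give 0.56 and -0.02.

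The relatives and partners of these genes, taken as lists, showed no called change either. Among 8 close relatives, the other polypyrimidine tract, hnRNP L and poly(C) binding protein genes with Elavl1, 4 stood above 0 and 4 below, with 0 called by edgeR, 0 at an unadjusted p under 0.05 and a median of 0.00. Ptbp3, the PTBP gene of blood cells, stood at 0.20 (SE 0.12), Hnrnpll, a regulator of lymphocyte exons, at 0.13, Pcbp3 at -0.24 and Pcbp4 at -0.16. Ptbp3 had 27.8 CPM (KO2), 25.8 (KO4), 22.3 (WT6) and 24.4 (WT8), so that its KO values did not overlap its WT values. It was 1 of 4 close relatives whose KO libraries lay wholly above the WT libraries, beside 20.1% of all genes tested. For 2 of the 8 they lay wholly below, beside 19.4%.

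Of 30 other regulators of alternative splicing and their controllers, 27 were tested, 17 stood above 0 and 10 below, and the median was 0.05. None was called by edgeR and 0 had an unadjusted p under 0.05. The KO libraries lay wholly above the WT libraries for 10 of the 27, beside 20.1% of all genes tested, and wholly below for 2, beside 19.4%. Those with the smallest p were Qk, the quaking gene of glial and progenitor splicing, at 0.18 (SE 0.08), Rest, the repressor of neuronal genes, at 0.25 (SE 0.13), the Musashi gene Msi2 at 0.17 (SE 0.09) and Celf1 at 0.17 (SE 0.10). The host gene of miR-124, the microRNA that targets Ptbp1, stood at 0.08 (SE 0.10), and Srrm4, the activator of neuronal microexons, at 0.01 (SE 0.13); both were named after their values were seen. Raver1, a partner of PTBP1, had 4 to 13 reads and was not tested.

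Genes with exons that these proteins are known to control were looked at for their total transcript, since exon use is not in the tables. All 35 were tested, 21 stood above 0 and 14 below, the median was 0.02 and none was called by edgeR. The KO libraries lay wholly above the WT libraries for 6 of the 35, beside 20.1% of all genes tested, and wholly below for 7, beside 19.4%. An unadjusted p under 0.05 in edgeR was found for 2 of the 35, beside 4.7% of all genes tested. One was Cacna1b, a presynaptic calcium channel gene, at 0.26 (SE 0.10, edgeR adjusted p = 0.743). The other was Pkm, the pyruvate kinase gene whose alternative exons PTBP1 helps to select, at -0.28 (SE 0.10, edgeR adjusted p = 0.743). Ank3, an ankyrin gene of the axon initial segment, stood at 0.21, and Dlg4, the PSD-95 gene in which PTB proteins repress an exon, at -0.21. Dlg4 averaged 350 ± 14.2 CPM over the KO brains and 404 ± 44.2 CPM over the WT brains (SD, n = 2 each).

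**Figure D4:**
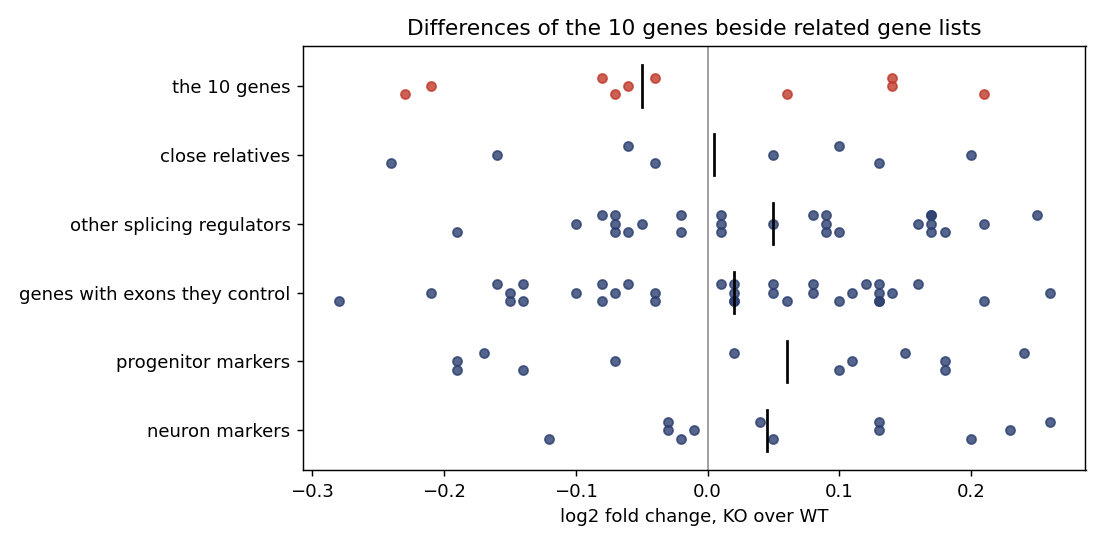
Log2 fold change of KO over WT for the 10 genes (red) and for the tested genes of 5 related lists (blue); each point is a gene and the black bar is the median of its list. All points lie between -0.28 and 0.26, with medians from -0.05 to 0.06.

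As background, levels of such genes depend on how many progenitors and neurons a piece of tissue holds, and in a bulk sample fewer cells of a type and less transcript per cell cannot be told apart. All 12 progenitor markers were detected and their summed level was 2900 CPM (KO2), 2830 (KO4), 2860 (WT6) and 2960 (WT8). All 12 neuron markers were detected, at summed levels of 7810, 7470, 7460 and 8000 CPM. The sums of both lists overlapped between the genotypes, and each list had 7 genes above 0, 5 below and none called, with medians of 0.06 and 0.04. The KO libraries lay wholly above the WT libraries for 4 of the 12 neuron markers and wholly below for 0. For the progenitor markers these counts were 2 and 1. Over all genes tested the shares were 20.1% above and 19.4% below. The progenitor genes with the smallest p were the proliferation genes Mki67 and Top2a, both at 0.18, the nestin gene Nes at -0.17 and Prom1 at 0.15. The neuronal genes with the smallest p were the neurofilament gene Nefm at 0.23, Map2 at 0.20, Snap25 and Dcx at 0.13, all above 0, while Tubb3, the most abundant gene of that list, stood at -0.12. Their part in the values of Ptbp1, Ptbp2 and Rbfox3 was not tested.

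Markers of other cells of the embryonic head were present at low or uneven levels. Erythroid genes summed to 577 CPM (KO2), 576 (KO4), 442 (WT6) and 996 (WT8), led by Hba-a1, Hbb-y and Hba-x, so the WT libraries differed most. Endothelial and pericyte genes, led by Rgs5, Cldn5 and Kdr, summed to 168 CPM (KO2), 162 (KO4), 163 (WT6) and 180 (WT8). Of these 8 genes 2 stood above 0 and 6 below, with a median of -0.07. Flt1, Tek and Cdh5 were wholly lower in KO, 3 of 8 where 19.4% of all genes tested were. None of the 8 was wholly higher, where 20.1% of all genes were. Rgs5 stood at -0.04, Cldn5 at -0.03 and Kdr at 0.01. Flt1, with the smallest p of the list, stood at -0.39 (SE 0.15, edgeR adjusted p = 0.743, unadjusted 0.0396). Microglial genes, led by Csf1r, C1qb and C1qa, summed to 33.3 CPM (KO2), 30.1 (KO4), 33.7 (WT6) and 39.8 (WT8), so both KO sums lay below both WT sums. Of the 8 microglial genes 3 stood above 0 and 5 below, and none was called. C1qa, C1qb and Aif1 were wholly lower in KO, 3 of 8 where 19.4% of all genes tested were. C1qa stood at -0.52 (SE 0.22, edgeR adjusted p = 0.743). The genes above 0 were Tyrobp at 0.20, Cx3cr1 at 0.05 and P2ry12 at 0.05, and their libraries overlapped. The part of microglial and endothelial cells in the values of Rbfox3, Ptbp1 and Ptbp2 was not tested. Of 8 meningeal genes 5 were tested, led by Crabp2, Foxc1 and Col1a2, and they summed to between 17.5 and 32.1 CPM. Of 7 choroid plexus genes only Otx2 and Ttr were tested, at summed levels between 3.60 and 9.33 CPM, and the defining gene Folr1 had 1 to 14 reads. Otx2 and Ttr differed in opposite directions between the WT libraries. Otx2 had 1.57 CPM in WT6 and 9.08 in WT8, and Ttr had 3.08 in WT6 and 0.25 in WT8. WT6, the library with low Nova1 and high Rbfox1, had the lowest erythroid and meningeal sums, and the part of tissue composition in those values was not tested.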

How the data were processed

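RNA of 2 KO and 2 WT brains was sequenced, and groups and library numbers were taken from the titles. HTSeq 0.6.0, TopHat2 2.0.12, Bowtie2 2.2.3 and the build mm9 are listed in the submitters' processing notes, without roles. The positions in the tables were, however, identical to GENCODE M21 on GRCm38 for 91.2% of genes, so that build is given here. The authors deposited whole read counts per gene, and a CPM that divides each count by the library total, per the file headers and the values. Their tables also hold a ratio of KO over WT as a linear fold change, its log2, and p-values, per the file headers. Counts of genes in both tables were fitted in R 4.3.3 with edgeR 4.0.16 (quasi-likelihood F-test, genotype only, TMM, filterByExpr, Benjamini-Hochberg over all genes tested, threshold 0.05), and the SE is the log2 fold change over the root of F. The fit was tested on simulated counts. Alternatives were other scalings, no filter, DESeq2 1.42.0, limma-voom (limma 3.58.1), the deposited pair as a block and the fit without each library. Ratios of paralogs were compared by exact permutation over libraries. Named were all 10 members, Elavl1, Ptbp3, H2afy, H2afy2, up to 4 genes with the smallest p of each list and the 3 most abundant markers of other cell types. Members and lists were chosen with earlier results of these data known.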

Additional observations from a re-analysis of the deposited data

How the results depend on the processing

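The edgeR fit called 1 gene, and 2 with library totals as the scale, 4 with DESeq2 (2 higher), 2 when the table of deposit was a block, and between 0 (without WT6) and 104 (without WT8) when a library was left out. No paired analysis was possible because the labels give the genotypes no shared replicate numbers, and the block is only the table in which libraries were deposited. No member was called in any of these fits apart from Nova1 without WT8. Leaving out a library moved Nova1 between -0.04 and 0.52 and Rbfox1 between -0.22 and 0.17, with the sign changing in both, and H2afy between -2.29 and -2.16, where the call ended without WT6. These fits hold 1 library of a genotype, which is assumed to vary like the other genotype. The other 8 members kept their direction under all alternatives, but single libraries moved their size: without a library Ptbp1 ranged from -0.27 to -0.15, Ptbp2 from 0.08 to 0.20, Rbfox3 from -0.29 to -0.17, Elavl2 from 0.09 to 0.19, Elavl3 from -0.11 to -0.03 (without KO2), Elavl4 from 0.02 (without WT8) to 0.10, Nova2 from -0.13 (without WT8) to -0.04 (without WT6) and Rbfox2 from -0.10 (without WT8) to -0.01 (without WT6). The paralog ratios differed between the tables as deposited: the difference of log2 ratios for KO2 and WT6 and for KO4 and WT8 was 0.21 and 0.49 for Ptbp2 to Ptbp1, -0.16 and -0.08 for the Elavl genes, 0.71 and -0.07 for Nova1 to Nova2 and -0.17 and 0.23 for Rbfox1 to Rbfox2. Without a library these differences ranged from 0.27 to 0.43, -0.15 to -0.08, 0.00 to 0.64 and -0.12 to 0.19. The cause was not tested. The number of members whose genotypes did not overlap was 6, and 5 in the deposited CPM, a comparison added after seeing the data.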
